A study of Rattus norvegicus with 12 samples.

Results

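The 3 rat liver piRNAs described here, rno_piR_020049, rno_piR_001415 and rno_piR_015359, were chosen by name from their read counts at 24h after partial hepatectomy, where the first was high and the others were low against sham-operated liver. They are 3 of the 701 piRNA names listed over the 12 small RNA libraries of the series, and each was listed in every library. All libraries came from liver of Fischer-344 (F-344) rats, an inbred strain. The control group, pre_PH, held 6 libraries of normal liver after a sham operation, and 2 libraries each were made at 24, 48 and 168 hours after partial hepatectomy, an operation that removes part of the liver and leaves a remnant that regrows. Age, sex and the number of animals behind a library are not given in the labels, and p-values here measure library-to-library spread, which may be technical. The labels also give no batch or date, and handling common to both libraries of a time point and the time point itself cannot be told apart.

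PIWI-interacting RNAs (piRNAs) are small RNAs that guide PIWI proteins, and they are best known for silencing transposable elements in the germ line. In somatic tissue such as liver they are scarce, and a read assigned to a piRNA name may also match a fragment of a longer structural RNA, since piRNA collections were built from sequenced small RNAs. In the rat, DNA synthesis of hepatocytes peaks about a day after hepatectomy, and liver mass is largely restored within about a week. The role of none of the 3 piRNAs is known here, and they are therefore ordered by the direction of their 24h values. Their sequences and genome positions were not used here. Only piRNA names were read, so the tissue label was not checked against marker genes.

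Library totals, as implied by the authors' percentages, ran from 20741811 to 31467460 reads, and the lowest and the highest were both 48h libraries (replicates 1 and 2). Reads listed under piRNA names numbered 120844 to 351818. The largest number, in pre_PH replicate 3, made up 1.25% of its library against 0.408 to 0.858% in the other 11. Both 48h libraries listed more names (328 and 446) than any other library (128 to 216). Levels are given in RPM (reads per 1000000 reads of the library, from the authors' library total) unless normalised CPM is named. In bulk liver RNA, fewer cells of a type and less RNA per cell cannot be told apart.

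The piRNA that was high at 24h, rno_piR_020049, was close to the detection limit in sham-operated liver. It had between 1 and 15 reads in the 6 pre_PH libraries, a level of 0.0356 to 0.521 RPM with a median of 0.270. A count of 0 would have allowed 0.104 to 0.127 RPM in these 6 libraries (3 reads), so only pre_PH replicate 3, with its 1 read, lay under that limit. At 24h it had 104 reads in replicate 1, or 3.56 RPM (95% Wilson interval 2.94 to 4.31), and 43 reads in replicate 2, or 1.88 RPM (1.39 to 2.53). Both 24h libraries thus lay above all 6 sham-operated ones, and the ratio of group means was 9.95. These are the values that chose it, and they are given as a description.

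At 48h the 2 libraries gave opposite pictures of rno_piR_020049. Replicate 1 had 80 reads, or 3.86 RPM (3.10 to 4.80), the highest of the 12 libraries. Replicate 2 had 6 reads, or 0.191 RPM (0.0874 to 0.416), below the pre_PH median. The first of these values resembled 24h and the second sham-operated liver, and the ratio between them was 20.2. By 168h the levels were alike in both libraries, with 17 reads (0.548 RPM, 0.342 to 0.878) and 16 reads (0.583 RPM, 0.359 to 0.946). Both lay just above the highest pre_PH library, pre_PH replicate 5 (15 reads, 0.316 to 0.859 RPM), whose counting interval overlaps theirs. In order of group means, the level was highest at 24h (2.72 ± 1.19 RPM, SD, n = 2), then 48h (2.02 ± 2.59, n = 2), 168h (0.565 ± 0.0244, n = 2) and pre_PH (0.273 ± 0.155, n = 6). The ranges at 24h and 48h overlapped, and the 48h range enclosed that at 168h and overlapped that of pre_PH.

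The less abundant of the 2 low piRNAs was rno_piR_001415. It had 102 to 169 reads per pre_PH library, a level of 3.67 to 5.87 RPM with a median of 4.73. At 24h it had 21 reads (0.718 RPM, 0.470 to 1.10) and 17 reads (0.742 RPM, 0.464 to 1.19). Both lay below every other library of the series, and the mean was 6.54 times lower than in pre_PH, which is the value that chose it.

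Later values of rno_piR_001415 lay on both sides of the sham-operated range. At 48h replicate 1 had 64 reads (3.09 RPM, 2.42 to 3.94), under the lowest pre_PH library, and replicate 2 had 248 reads (7.88 RPM, 6.96 to 8.92), above the highest. At 168h the levels were 1.81 RPM (56 reads, 1.39 to 2.34) and 3.28 RPM (90 reads, 2.67 to 4.03), both below the pre_PH range and above the 24h values, although the counting interval of the second overlaps that of the lowest pre_PH library (3.03 to 4.45). Group means followed the order 48h (5.48 ± 3.39 RPM, n = 2), pre_PH (4.77 ± 0.896, n = 6), 168h (2.54 ± 1.04, n = 2) and 24h (0.730 ± 0.0171, n = 2). The 48h range overlapped those of pre_PH and 168h, and the 24h range overlapped no other group.

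The third piRNA, rno_piR_015359, was the most abundant of the 3. It had 613 to 1199 reads in the pre_PH libraries, or 26.0 to 42.7 RPM with a median of 34.0, and it ranked between 10 and 17 among the 129 to 216 names listed there. At 24h it had 259 reads (8.86 RPM, 7.84 to 10.01) and 140 reads (6.11 RPM, 5.18 to 7.21), both below all pre_PH libraries, with a mean 4.55 times lower. Its rank moved to 20 and 23. These values, too, chose it.

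At 48h rno_piR_015359 was again split between the libraries. Replicate 1 had 168 reads (8.10 RPM, 6.96 to 9.42), within the 24h range, and replicate 2 had 1407 reads (44.7 RPM, 42.4 to 47.1), slightly above the highest pre_PH library. At 168h both libraries lay above all sham-operated ones, with 1937 reads (62.4 RPM, 59.7 to 65.3) and 2643 reads (96.2 RPM, 92.6 to 99.96). Group means were therefore highest at 168h (79.3 ± 23.9 RPM, n = 2), followed by pre_PH (34.1 ± 5.75, n = 6), 48h (26.4 ± 25.9, n = 2) and 24h (7.49 ± 1.94, n = 2). The 168h range overlapped no other group, and the 48h range overlapped both pre_PH and 24h.

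**Figure D1:**
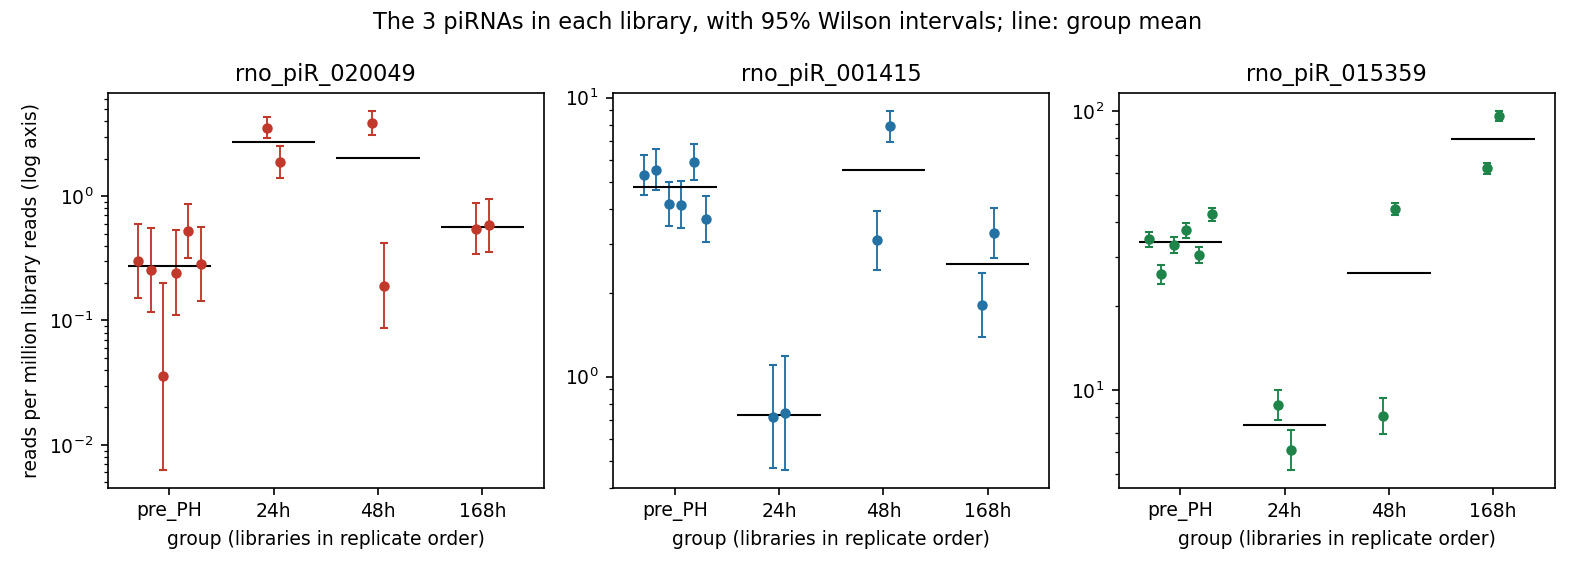
Level in RPM (log axis) of rno_piR_020049, rno_piR_001415 and rno_piR_015359 in the 6 pre_PH libraries and the 2 libraries each at 24h, 48h and 168h. Points are libraries with 95% Wilson intervals for counting error, and the line is the group mean. The 24h points of each piRNA lie outside its pre_PH points, and the 48h points lie far apart, from 0.191 to 3.86 RPM for rno_piR_020049 and from 8.10 to 44.7 RPM for rno_piR_015359.

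Counted over libraries, all 3 piRNAs had both 24h libraries outside the pre_PH range on the same side, and the 24h values are those that chose them. Among the 80 piRNAs with enough reads to be tested, 17.5% did so at 24h. At 48h none of the 3 had both libraries on the same side of the pre_PH range, against 50.0% of the 80. For rno_piR_001415 and rno_piR_015359, 1 library lay below it and 1 above. At 168h all 3 did, with rno_piR_020049 and rno_piR_015359 above and rno_piR_001415 below, against 22.5% of the 80. The choice used the same pre_PH libraries, so the 168h count is not independent of it.

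The later times were then compared with edgeR, which models read counts with a spread shared over all libraries, on the scale of normalised CPM. This scale divides counts by the TMM-corrected total of listed piRNA reads, and a value on it therefore depends on the other piRNAs of the library. Calls required an adjusted p (Benjamini-Hochberg, over the 80 tested) under 0.05. All 3 passed the filter on low counts. The comparison of 24h with pre_PH chose the 3, so its values are a description and not a test of them. In that comparison 2 of the 80 (2.50%) were called, fewer than the 3 chosen. The log2 fold changes there were 3.68 ± 0.76 (SE) for rno_piR_020049, the highest of the 80, -2.43 ± 0.64 for rno_piR_001415, the second lowest, and -1.84 ± 0.64 for rno_piR_015359, the fourth lowest, beside a median of -0.22 over all 80. Without 24h replicate 1 the first was 2.81 and the last -2.49. Just outside the choice by p were rno_piR_000219, at -1.82 ± 0.69, and rno_piR_005633, at -1.77 ± 0.68.

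At 48h, 1 of the 3 was called against pre_PH, beside 46.2% of all 80 tested. The choice used the same pre_PH libraries, so this comparison is not independent of it. The called one, rno_piR_020049, rose by 2.32 ± 0.78 (SE) on the log2 scale with an edgeR adjusted p of 0.0207, from 44.3 ± 23.1 normalised CPM (n = 6) to 228 ± 299 (n = 2), and 18 of the 80 had a higher fold change. That rise rested on 1 library: without 48h replicate 1 the log2 fold change was -2.23. The call was also lost without pre_PH replicate 6 (1.75), 24h replicate 1 (1.97), 24h replicate 2 (1.498) or 168h replicate 1 (1.12). Limma-voom (1.03), no filter on low counts (1.73) and a block for replicate number (1.45) lost the call as well. It held in 14 of 22 alternative settings overall.

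The other 2 did not pass at 48h. Normalised CPM of rno_piR_001415 was 793 ± 210 in pre_PH and 520 ± 238 at 48h (log2 fold change -0.60 ± 0.55, edgeR adjusted p = 0.403). With the authors' library totals as the scale its fold change took the opposite sign (0.20), and it passed without 24h replicate 2 (-1.69) or 168h replicate 1 (-1.79). For rno_piR_015359 the levels were 5583 ± 800 and 2414 ± 2108 (log2 fold change -1.21 ± 0.62, edgeR adjusted p = 0.112). It passed without 48h replicate 2 (-3.09), 24h replicate 2 (-2.37) or 168h replicate 1 (-2.41), and with limma-voom (-1.59).

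The distance between the 2 libraries at 48h was large among all tested for rno_piR_020049 and rno_piR_015359, and nearer to the median for rno_piR_001415. On the log2 scale of normalised CPM, rno_piR_020049 differed by 4.002 between replicates 1 and 2, more than any other of the 80 piRNAs, whose median absolute difference was 0.788. The difference for rno_piR_015359 was -2.07, and 3 of the 80 differed by more. For rno_piR_001415 it was -0.95, and 29 of the 80 differed by more. In each case replicate 1 was the one nearer to the 24h values, higher for the piRNA chosen as high and lower for the other two. At 168h the 3 differed by 0.85, 0.16 and 0.40 between libraries, under the median absolute difference of 1.19 over the 80. Replicate 1 was the higher on this scale and replicate 2 the higher in RPM. The median signed difference over the 80 was 1.10, so the 1.19 is largely a shift in common and does not show that the 3 replicated better. In RPM the higher library was 1.06, 1.81 and 1.54 times the lower for rno_piR_020049, rno_piR_001415 and rno_piR_015359. In pre_PH, rno_piR_015359 had the smallest SD of the 80 (0.20 on the log2 scale, median 0.71). The piRNA rno_piR_001415 was also among the steadier ones (0.35, with 70 of the 80 varying more), and rno_piR_020049 was nearer to the middle (0.80, with 28 of the 80 varying more). The choice used these pre_PH libraries, and a small spread in them favours being chosen, so the SDs are a description only. The 2 libraries at 48h also differed in library total, 20741811 against 31467460 reads, and the part of that difference in these values was not tested.

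**Figure D2:**
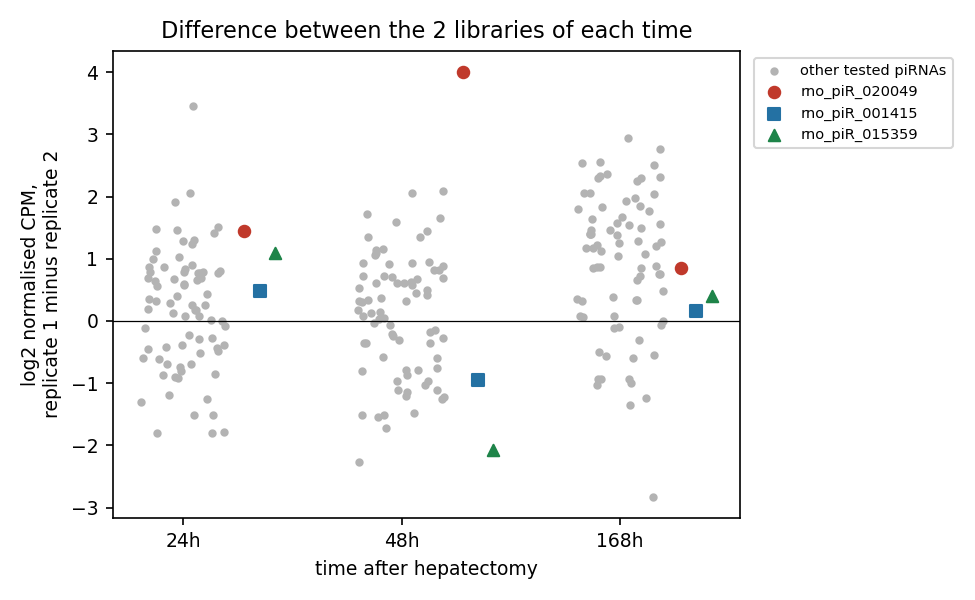
Difference in log2 normalised CPM between replicate 1 and replicate 2 at 24h, 48h and 168h, for the 3 piRNAs (coloured) and the other tested piRNAs (grey). At 48h rno_piR_020049 lies highest of all, at 4.002, and rno_piR_015359 lies near the lower end, at -2.07, while at 168h the 3 lie between 0.16 and 0.85.

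At 168h none of the 3 was called against pre_PH by edgeR, DESeq2 or limma-voom, beside 6.25% of the 80 called by edgeR. This comparison, too, shares the pre_PH libraries with the choice and is not independent of it. One of the 3, rno_piR_015359, had an unadjusted p under 0.05 with each tool. Its level was 16015 ± 3098 normalised CPM (n = 2) against 5583 ± 800 (n = 6), higher by 1.52 ± 0.53 (SE) on the log2 scale with an edgeR adjusted p of 0.100. The values of rno_piR_020049 were 122 ± 53.8 against 44.3 ± 23.1 (1.42 ± 0.83, edgeR adjusted p = 0.372), and those of rno_piR_001415 were 499 ± 39.3 against 793 ± 210 (-0.67 ± 0.56, edgeR adjusted p = 0.503). The median over all 80 was 0.33. Each of the 3 kept its direction under all 22 alternative settings tried. Of these, 2 called rno_piR_015359, a filter of at least 100 reads in all (1.61, edgeR adjusted p = 0.0380) and a fit of these groups alone (1.48, edgeR adjusted p = 0.0482). Its lowest value with a library left out was 0.68, for pre_PH replicate 4, followed by 0.85 for 24h replicate 2 and 0.96 for the first replicates of 24h and 48h.

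The contrast of 168h with 48h compares no library that the choice compared, although the 24h and pre_PH libraries entered the fit and so its scaling and its estimate of spread. Of the 3, 1 was called, beside 37.5% of the 80. The piRNA rno_piR_015359 rose from 2414 ± 2108 to 16015 ± 3098 normalised CPM (n = 2 each). The log2 difference was 2.73 ± 0.74 (SE) with an edgeR adjusted p of 0.00783, and the groups did not overlap, with both 168h libraries above both 48h libraries. It was called in 19 of 22 alternative settings. The exceptions were scaling to the authors' library totals (1.59), a fit of these 2 groups alone, which uses none of the libraries of the choice (2.73, with a larger SE of 1.17 and an edgeR adjusted p of 0.0671), and the fit without pre_PH replicate 4 (1.68). Over all settings the edgeR, DESeq2 and limma adjusted p ran from 0.00064 to 0.0689. The other 2 did not pass, with log2 fold changes of -0.90 ± 1.02 for rno_piR_020049 (edgeR adjusted p = 0.543) and -0.07 ± 0.66 for rno_piR_001415 (edgeR adjusted p = 0.963). Without 48h replicate 1, rno_piR_020049 was higher at 168h than at 48h by 3.11 and was called.

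**Figure D3:**
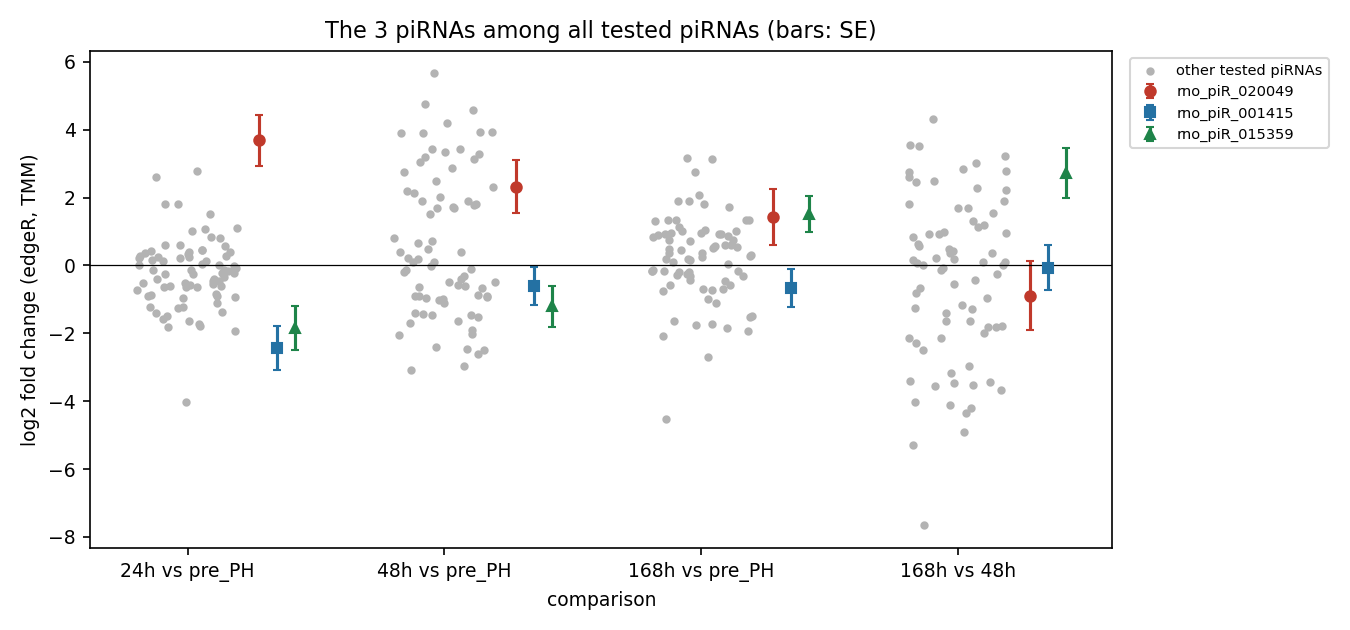
Log2 fold changes (edgeR, TMM) of the 3 piRNAs (coloured, bars are SE) among the other tested piRNAs (grey) in 4 comparisons. The 24h comparison is the one that chose the 3. Between 48h and 168h rno_piR_015359 lies at 2.73 and the other two at or below 0.

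The choice of scale moved all piRNAs together. Scaled to the authors' library totals in place of TMM, the median log2 fold change of the 80 went from -0.22 to -0.48 at 24h, from 0.09 to 0.83 at 48h, from 0.33 to -0.05 at 168h, and from 0.01 to -1.17 between 48h and 168h. Set against that median, the values of the 3 piRNAs at 24h were close under both scales: 3.91 with TMM and 3.77 with library totals for rno_piR_020049, -2.21 and -2.22 for rno_piR_001415, and -1.62 and -1.70 for rno_piR_015359. At 48h the log2 fold change of rno_piR_020049, called at 2.32, stood 2.23 above the median with TMM and 2.01 above it with library totals. Between 48h and 168h rno_piR_015359 stood 2.72 and 2.76 above it. Subtracting the median removes a shift common to all piRNAs, so the closeness of the 2 scales follows largely from the calculation. It is no support for these values, and those at 24h are also the ones that chose the 3.

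The files also count how many different sequences made up the reads of a name. This number cannot exceed the read count, on which the choice was made, so it is not independent of the choice. Length variants, base variants and sequencing errors all add to the number of distinct sequences. The high piRNA, rno_piR_020049, came from very few sequences at every level. It had 1 or 2 in each pre_PH library, 3 in each 24h library, 2 and 3 at 48h and 4 in each 168h library. The 104 reads of 24h replicate 1 were copies of 3 sequences, where the 5 other piRNAs within 2-fold of its read count in that library had a median of 17. The 80 reads of 48h replicate 1 were copies of 2, against a median of 19 over 19 such piRNAs. In no library did it have more distinct sequences than the median of piRNAs of like read count.

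The piRNA rno_piR_015359 also had fewer distinct sequences than the median of piRNAs of like read count, in all 12 libraries. Their number stayed between 9 and 15 while reads ran from 140 to 2643. In pre_PH it had 10 to 15, at 24h 9 and 11, at 48h 14 and 12, and at 168h 13 and 13. For rno_piR_001415 the number moved with the reads, from 6 sequences in 17 reads at 24h to 31 in 248 reads at 48h. It had more distinct sequences than the median of piRNAs of like read count in 10 of 12 libraries and fewer in 1, 48h replicate 1 (10 against 17).

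Per 100 reads, the distinct sequences of these piRNAs were compared with pre_PH at the later times, by tests that could hardly pass. The measure divides by read counts, on which the choice was made, and uses the same pre_PH libraries. It is therefore not independent of the choice. Over the 6 comparisons with pre_PH, exact two-sided permutation tests gave an adjusted p of at least 0.214. That is the adjusted p of a single comparison at the smallest possible p, so these tests cannot decide whether the measure changed. With 2 libraries against 6 the smallest p is 0.0357, which rno_piR_015359 reached at 168h (0.582 ± 0.127 per 100 reads, n = 2, against 1.32 ± 0.168, n = 6, exact permutation p = 0.0357, adjusted p = 0.214). Its 168h libraries held more reads (1937 and 2643 against 613 to 1199), while the number of distinct sequences, 13 in each, lay within the pre_PH range of 10 to 15. The part of read depth in the measure per 100 reads was not tested. At 48h the same measure was 8.33 in replicate 1 and 0.853 in replicate 2, in the order opposite to their reads.

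**Figure D4:**
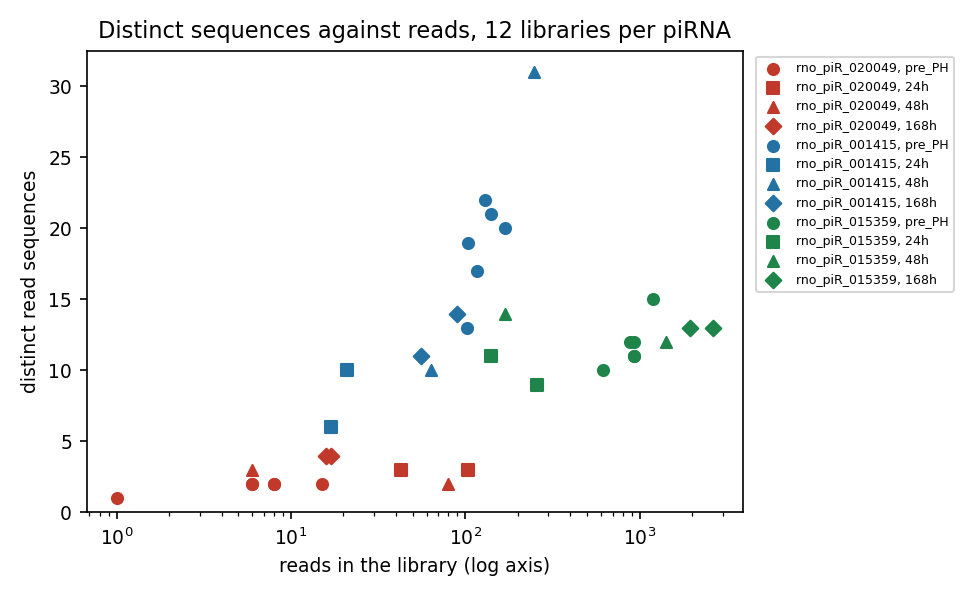
Distinct read sequences against reads (log axis) of the 3 piRNAs in each of the 12 libraries, with colour for the piRNA and shape for the group. The points of rno_piR_020049 stay between 1 and 4 and those of rno_piR_015359 between 9 and 15, while those of rno_piR_001415 climb from 6 to 31.

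The piRNAs most like each of the 3 across the 12 libraries were found by Pearson's r of log2 normalised CPM among the 80 tested, as a description. The libraries share their scaling factors, and the 3 nearest were picked as the highest of 79 values. For rno_piR_015359 these were rno_piR_000746 (r = 0.83, Spearman rho = 0.90), rno_piR_002302 (r = 0.77, rho = 0.85) and rno_piR_000127 (r = 0.69, rho = 0.57). As with rno_piR_015359, their mean levels were highest at 168h. The level of rno_piR_000746 went from 10459 normalised CPM in pre_PH to 4878 at 24h and 1333 at 48h, and was 26689 at 168h.

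Nearest to rno_piR_001415 was rno_piR_000219 (r = 0.73, rho = 0.82), which is also the first piRNA just outside the choice. Its mean level was 218 normalised CPM at 24h and 245 at 168h, against 770 in pre_PH and 869 at 48h. The next were rno_piR_005700 (r = 0.64, rho = 0.57) and rno_piR_005900 (r = 0.62, rho = 0.50), and for rno_piR_005900 r was -0.02 over the 10 libraries other than 24h. The highest r for rno_piR_020049 was below the highest for each of the other two. Its nearest were rno_piR_005359 (r = 0.65, rho = 0.59), rno_piR_024382 (r = 0.52, rho = 0.44) and rno_piR_004937 (r = 0.50, rho = 0.53). Their mean levels were higher at 24h than in pre_PH, but none was highest at 24h. That of rno_piR_005359 was highest at 168h (35269 normalised CPM, against 28663 at 24h). Those of rno_piR_024382 (228 against 42.9 at 24h) and rno_piR_004937 (940 against 185 at 24h) were highest at 48h.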

How the data were processed

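The members and lists were chosen with earlier results of these data known. Per the labels' protocols, TRIzol RNA was made into Illumina TruSeq small RNA libraries and sequenced on a HiSeq instrument. The submitters' processing notes name the tools cutadapt, CASAVA 1.8 and DESeq 1.14.0 and the build rn4, without saying what each did. How reads were aligned, and where a read matching several names was counted, is not given in the sources used here, so near-identical piRNAs could share or split reads. Per the file headers, the authors' deposited read counts and counts of distinct reads are not normalized. The deposited percent columns, per the file headers, are relative to all reads or to piRNA-mapped reads. Listed reads were 99.2 to 99.9% of the latter.

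Library totals were read counts divided by the first percent, and RPM uses them. Counts were fitted with edgeR 4.0.16 (R 4.3.3, quasi-likelihood, robust, TMM, filterByExpr) over all 12 libraries in 4 groups, and a code check used simulated data. SE is the size of the log2 fold change over the square root of F. TMM factors ran from 0.480 to 1.51. DESeq2 1.42.0, limma 3.58.1, other scalings, filters and left-out libraries were alternatives. PCR copies were not separated from molecules, so Wilson intervals (95%) and the 3-read limit cover counting error only. Chi-square tests of counts found that every replicate pair differed beyond sampling noise. Named piRNAs are the 3 members, the next 2 by 24h p, and the 3 nearest to each member by Pearson's r (prior count 2).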

Additional observations from a re-analysis of the deposited data

Results flagged for a closer look

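In pre_PH replicate 3, rno_piR_020049 was seen as 1 distinct read sequence, where the other 5 pre_PH libraries each had 2, so that library stood apart from its group. With its single read it also had 100 distinct sequences per 100 reads, against 13.3 to 33.3 in the other 5. Both values follow from the 1 read there, which can only be 1 sequence, and they count as 1 observation. In all, 12 sets of pre_PH values were examined in this way. Chance alone picks about 1 in 20 sets of continuous values, a rate that need not hold for small whole numbers such as these.

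The change of rno_piR_015359 from pre_PH differed between 168h and 48h by 2.73 on the log2 scale, tested directly between those times (edgeR adjusted p = 0.00783).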

How the results depend on the processing

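Of 385 recomputed values for 21 results, 322 were held to be the same. For fold changes and distinct sequences this meant keeping direction and side of the threshold. Where no test was made, it meant keeping direction and moving by less than the spread between libraries. Counts of piRNAs called had to stay within a fixed fold of the main count. The permutation tests could hardly cross the threshold in any setting, so the 322 is not a measure of stability. The cause of the changes below was not tested. At 24h the log2 fold change of rno_piR_001415 was -1.998 with at least 100 reads in all and -2.04 with TMM without the 10 most abundant piRNAs, and with a library left out it ran from -2.78 to -2.06. That of rno_piR_015359 ran from -2.49 to -1.501, and that of rno_piR_020049 from 2.81 to 3.95.

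At 48h against pre_PH rno_piR_020049 had 1.03 with limma-voom, 1.73 with no filter on low counts and 1.45 with the replicate block (adjusted p = 0.210), none of them called, and from -2.23 to 2.85 with a library left out. For rno_piR_001415 scaling to the authors' library total gave 0.20, and leaving out a library -1.79 to -0.46. For rno_piR_015359 limma-voom gave -1.59, and leaving out a library -3.09 to -0.996. The count called went from 37 to between 19 and 52 with a library left out. It was lowest without 48h replicate 1. Of the calls 27 were higher and 10 lower, and with piRNA total scaling 31 and 2.

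At 168h against pre_PH rno_piR_015359 passed with at least 100 reads in all (1.61) and in the fit of only the groups compared (1.48), and had 0.68 to 1.55 with a library left out. The count called, 5 in the report, was 1 with limma-voom, 3 with no filter, 2 with piRNA total scaling, 0 with the authors' library total or the replicate block, 8 with only the groups compared and 0 to 6 with a library left out, with 0 without 24h replicate 1 or 168h replicate 2.

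Between 48h and 168h rno_piR_020049 had 0.50 with limma-voom and -1.78 to 3.11 with a library left out. For rno_piR_001415 limma-voom gave 0.0013, no filter 0.46, TMM without the 10 most abundant 0.23, and leaving out a library -1.03 to 1.08. For rno_piR_015359 the authors' library total gave 1.59, only the groups compared 2.73, and leaving out a library 1.68 to 4.42. The count called was 30, with 13 higher and 17 lower, against 17 with no filter and 16 to 35 with a library left out, lowest without 168h replicate 1 (16) and 48h replicate 2 (19). It was 7 higher and 17 lower with piRNA total scaling, and 7 and 26 with the authors' library total.

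Per 100 reads, the distinct sequences changed sign when their number alone was compared, with differences from pre_PH at 48h of 0.667 for rno_piR_020049 and 1.83 for rno_piR_001415, and at 168h of 2.17 for rno_piR_020049, -6.17 for rno_piR_001415 and 1.17 for rno_piR_015359. With a library left out the 48h differences per 100 reads ran from -35.8 to 11.7, -2.40 to 0.730 and -0.466 to 7.01 in the order rno_piR_020049, rno_piR_001415 and rno_piR_015359.

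Same-numbered libraries of 2 groups deviated from their group means with correlations from -0.44 to 0.35. With 2 libraries per time the deviations mirror each other, so these values cannot decide whether replicate numbers pair the libraries. The replicate block changed the counts called to 27 at 48h, 0 at 168h and 26 between 48h and 168h. With the numbers of the 168h libraries exchanged, chosen after seeing the data, the last was 27. Leaving out 1 library of a time left a lone sample that was assumed to vary like the others, and the filter then let more piRNAs in (88 to 108 in place of 80). Depth limits rno_piR_020049 most, with 1 to 17 reads in 9 of the 12 libraries.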
